A study of Mus musculus with 24 samples.

Results

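The periportal side of the mouse liver lobule was compared with the pericentral side by miRNA array. The sides were formed from the zone in each sample title: zones 5 to 8 made the periportal side (12 arrays) and zones 1 to 4 the pericentral side (12 arrays), so all 24 of the 24 arrays entered. Each array held total RNA from 50000 tetraploid hepatocytes of 1 zone of 1 mouse, and each of the 3 mice gave 4 zones to each side. All mice were untreated C57BL/6J males aged 3 months with free access to food under a reversed light-dark cycle. Hepatocytes were ordered from zone 1, with the most CD73, to zone 8, with the most E-cadherin, after dead cells and cells carrying CD45 or CD31 had been removed. Both sort markers are therefore what defines the sides, and the zone is a rank by surface protein and not a measured distance.

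Sides were also slide rows. Each mouse had a slide of its own, and zones 5 to 8 filled the second row and zones 1 to 4 the first row of all 3. Side and slide row cannot be told apart in any comparison given here, and mouse and slide are 1 factor.

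Hepatocytes near the portal tract meet blood rich in oxygen and are known for glucose production, urea formation and fatty acid oxidation. Those near the central vein are known for glycolysis, glutamine and bile acid synthesis and the breakdown of foreign compounds. A miRNA is cut from the 5p or 3p arm of a hairpin precursor and represses mRNAs that pair with its seed, the bases near its 5′ end, so miRNAs with the same seed can share targets.

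The 14 miRNAs that passed the test between sides fell into 12 seeds, and these sequences show which of them share one. They are RefSeq mature sequences on GRCm38.p6, written 5′ to 3′ with the seed (bases 2 to 8) in capitals. In the table, 286 of 339 tested miRNAs and 14 of the 14 had a sequence. The first 13 were higher on the periportal side and the last was lower.
miR-125a-5p: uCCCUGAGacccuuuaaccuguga
miR-125b-5p: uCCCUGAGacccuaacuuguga
miR-99a-5p: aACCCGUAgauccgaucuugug
miR-100-5p: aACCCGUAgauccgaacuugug
let-7e-5p: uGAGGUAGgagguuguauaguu
miR-31-5p: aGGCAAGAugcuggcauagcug
miR-31-3p: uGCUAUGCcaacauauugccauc
miR-802-5p: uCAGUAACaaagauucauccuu
miR-137-3p: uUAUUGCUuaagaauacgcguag
miR-149-5p: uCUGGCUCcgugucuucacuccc
miR-30c-2-3p: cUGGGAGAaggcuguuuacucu
miR-27a-3p: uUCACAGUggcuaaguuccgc
miR-21a-5p: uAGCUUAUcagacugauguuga
miR-721: cAGUGCAAuuaaaagggggaa

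A second set holds relatives with the same seed that did not pass the test, shown because they differ from a called miRNA at few bases or, for miR-130a-3p, carry the seed of miR-721 in a different sequence.
let-7a-5p: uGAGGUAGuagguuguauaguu
miR-27b-3p: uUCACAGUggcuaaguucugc
miR-30c-1-3p: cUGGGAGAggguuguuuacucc
miR-130a-3p: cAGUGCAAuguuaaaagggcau

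Counted from 1 at the 5′ end, miR-100-5p differs from miR-99a-5p by U16A, let-7a-5p from let-7e-5p by G9U, and miR-27b-3p from miR-27a-3p by C19U. miR-30c-1-3p differs from miR-30c-2-3p by A9G, C12U and U22C. Signal that near-identical miRNAs share through their probes was not tested, so values of these pairs are uncertain to that extent.

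Summed over all miRNAs, the signal ranged over arrays between 57935 and 138301 (intensity, no unit) and averaged 94350 on periportal arrays and 91480 on pericentral arrays. Of 1881 miRNAs on the array, 248 to 368 were called detected, on average 301.5 on periportal arrays and 290.4 on pericentral arrays. Neither measure differed beyond its spread over mice (exact test swapping sides within mice, two-sided p = 0.75 for both, where 3 mice allow no p below 0.25). All 5 hepatocyte markers were detected, while 0 of 7 leukocyte and Kupffer cell, 0 of 9 stellate and fibroblast and 0 of 4 erythroid miRNAs on the array were detected. Of the 7 biliary miRNAs 1 was detected, on 1 array. miR-126a-3p, the defining endothelial miRNA, was the 1 of 4 endothelial miRNAs detected, with scaled signals of at most 11.4 on periportal arrays and 11.03 on pericentral arrays and a difference of -0.02 log2 units. It was detected on 9 periportal and 7 pericentral arrays, among them every array of mouse 1. Its difference was above 0 in 1 mouse and below 0 in 2. Of the control sequences present on all 24 arrays, hur_1, hur_2, hur_4 and hur_6 had scaled side differences of 0.02, -0.20, -0.10 and -0.07 log2 units. These means join unlike mice: in mouse 2 they were -0.41, -0.58, -0.49 and -0.40, and in mice 1 and 3 they ranged from -0.05 to 0.33. mr_1 had -0.31, below 0 in all 3 mice and -0.69 in mouse 2 (exact two-sided p = 0.25). Controls were therefore not level between the sides of mouse 2. Precision is limited by the number of mice, 3.

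The periportal side carried a small group of miRNAs that were strongly higher there, and among the strongest were miRNAs with no detected signal on any pericentral array. Signals below are array intensities scaled between arrays, with undetected or dimmer values set to a floor of 1.12. Differences are on the log2 scale, periportal minus pericentral, after averaging the 4 zones of each side in each mouse. Of 339 miRNAs detected on at least 6 arrays, 13 were higher on the periportal side and 1 was lower (limma with mouse as a block, Benjamini-Hochberg adjusted p under 0.05), which is 3.83% and 0.295% of those tested and 4.13% in either direction. At an unadjusted p under 0.05 the counts were 39 higher and 32 lower. The counts and their split depended on the unit of analysis. When the 24 arrays were taken as separate values, keeping the mouse block, 48 were higher and 57 lower. With a further random block for the arrays of 1 mouse and side, 37 were higher and 37 lower. That block had a correlation of only 0.084, so arrays still counted as nearly separate. Here and below, p-values and counts from both fits mostly reflect spread between zones of a mouse, not between mice. With scaling to control sequences 16 were higher and 4 lower. A fit of only the 198 miRNAs detected on all 24 arrays gave 19 higher and 20 lower, whereas 3 of these 198 passed in the main fit. The split of 13 against 1 therefore did not hold for miRNAs detected throughout. Without mouse 2, 1 miRNA passed, miR-31-5p, and without mouse 3 it was 6 higher and 1 lower. Both arms of miR-31, miR-125a-5p, miR-802-5p, miR-137-3p and miR-149-5p had no pericentral detection and entered the test through the periportal side alone. All their pericentral values are the floor, so their p-values set periportal signal against a constant and measure no pericentral spread.

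**Figure D1:**
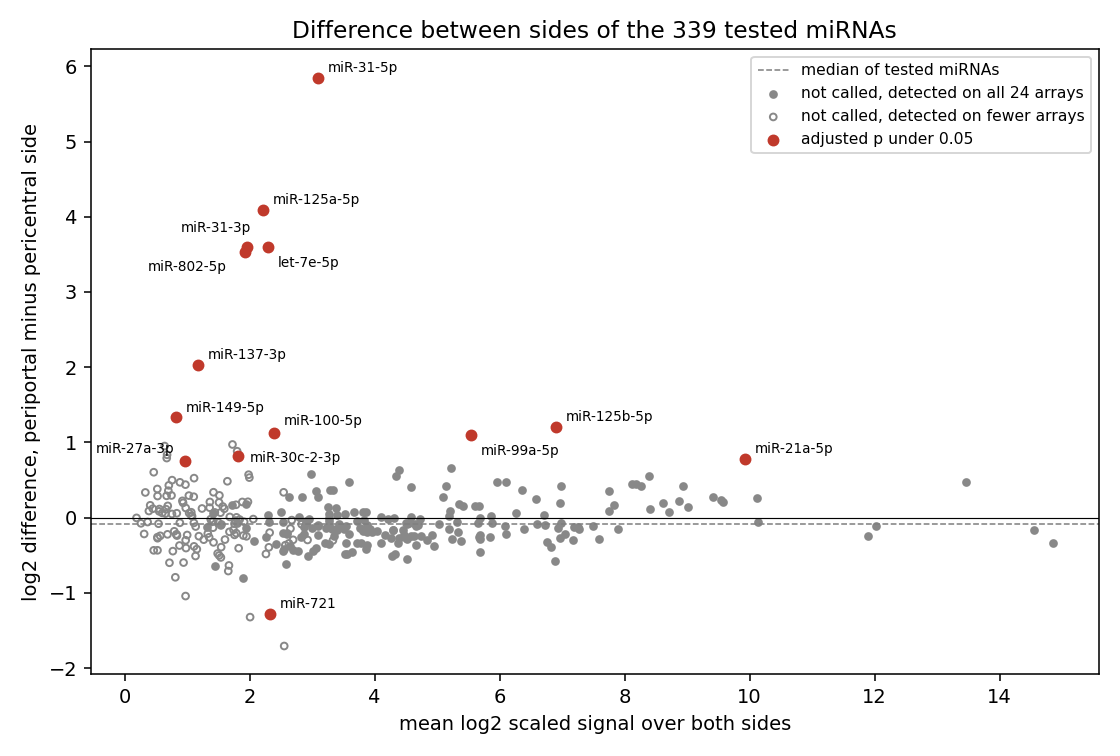
Log2 difference between sides (vertical axis, periportal minus pericentral) against the mean log2 scaled signal of both sides (horizontal axis) for the 339 tested miRNAs. Red points passed the test, filled grey points did not and were detected on all 24 arrays, and open points did not and were detected on fewer; the median of all points is -0.08, and 11 of the 14 red points are miRNAs not detected on all 24 arrays.

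miR-31-5p had the largest difference. This miRNA is known for control of proliferation in epithelia, and its precursor lies at chr4:88910557-88910662 on the minus strand (GRCm38.p6), within the long noncoding RNA gene Gm49890. Its scaled signal was 23.4 at the lowest, 74.99 at the median and 87.4 at the highest of 12 periportal arrays, and it was detected on 0 of 12 pericentral arrays. The sides did not overlap in any mouse. Against the lowest detected signals of the pericentral arrays it was 55.2-fold higher. Each of these is the signal of the dimmest detected miRNA on an array, so this fold is no lower bound. Against a stricter limit of 5.02 it was 12.8-fold higher. That limit is the 95th percentile of the lowest detected signals of 250 miRNAs detected on some but not all arrays. limma's adjusted p was 4.63e-06, and the differences in the 3 mice were 6.01, 5.56 and 5.97. Each of these sets periportal signal against the floor. The other arm, miR-31-3p, had 2.93, 16.3 and 19.7 as lowest, median and highest periportal signal and was likewise undetected on all pericentral arrays. It was 11.6-fold higher against the lowest detected signals and 2.70-fold against the stricter limit (limma adjusted p = 4.52e-05).

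miR-125a-5p, a relative of the lin-4 miRNA of worms, was likewise detected on every periportal array and on none of the others. Its periportal signal was 12.4 at the lowest, 19.1 at the median and 25.5 at the highest, with no detection on 12 pericentral arrays. It was 16.4-fold higher against the lowest detected signals and 3.81-fold against the stricter limit (limma adjusted p = 2.16e-05). miR-802-5p, known for a role in hepatic glucose metabolism in mice, had periportal signals of 7.08, 12.7 and 20.9 (lowest, median, highest). This miRNA was 11.1-fold higher against the lowest detected signals and 2.59-fold against the stricter limit (limma adjusted p = 4.52e-05). Its precursor at chr16:93369720-93369816 (plus strand) lies within no other annotated gene, and its other arm was not detected on any array. All 12 periportal arrays lay above all 12 pericentral arrays for both miRNAs.

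let-7e-5p, of the let-7 family known for keeping cells differentiated, was nearly of this kind. Its signal was 11.2, 17.4 and 22.1 (lowest, median, highest) on periportal arrays, against at most 2.39 on pericentral arrays, where it was detected on 4 of 12. The sides were again apart, with a difference of 3.59 ± 0.20 (SE, n = 3 mice) and a limma adjusted p of 8.56e-05. This difference rests on floored values on 8 pericentral arrays and is no bound.

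Weaker signals of the same form were given by miR-149-5p and by miR-137-3p, known from neuronal development. miR-137-3p was detected on 10 of 12 periportal and 0 of 12 pericentral arrays, with a periportal median of 6.03 and a highest value of 7.59. miR-149-5p had the same detection, with a median of 3.40 and a highest value of 4.21. Each was missing on 1 periportal array of mouse 1 and 1 of mouse 2, so the sides overlapped at the floor. Against the lowest detected signals they were 4.05-fold and 2.51-fold higher, but 0.944-fold and 0.584-fold against the stricter limit. Neither fold was therefore above 1 under both limits. limma's adjusted p was 0.00248 for miR-137-3p and 0.00536 for miR-149-5p.

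**Figure D2:**
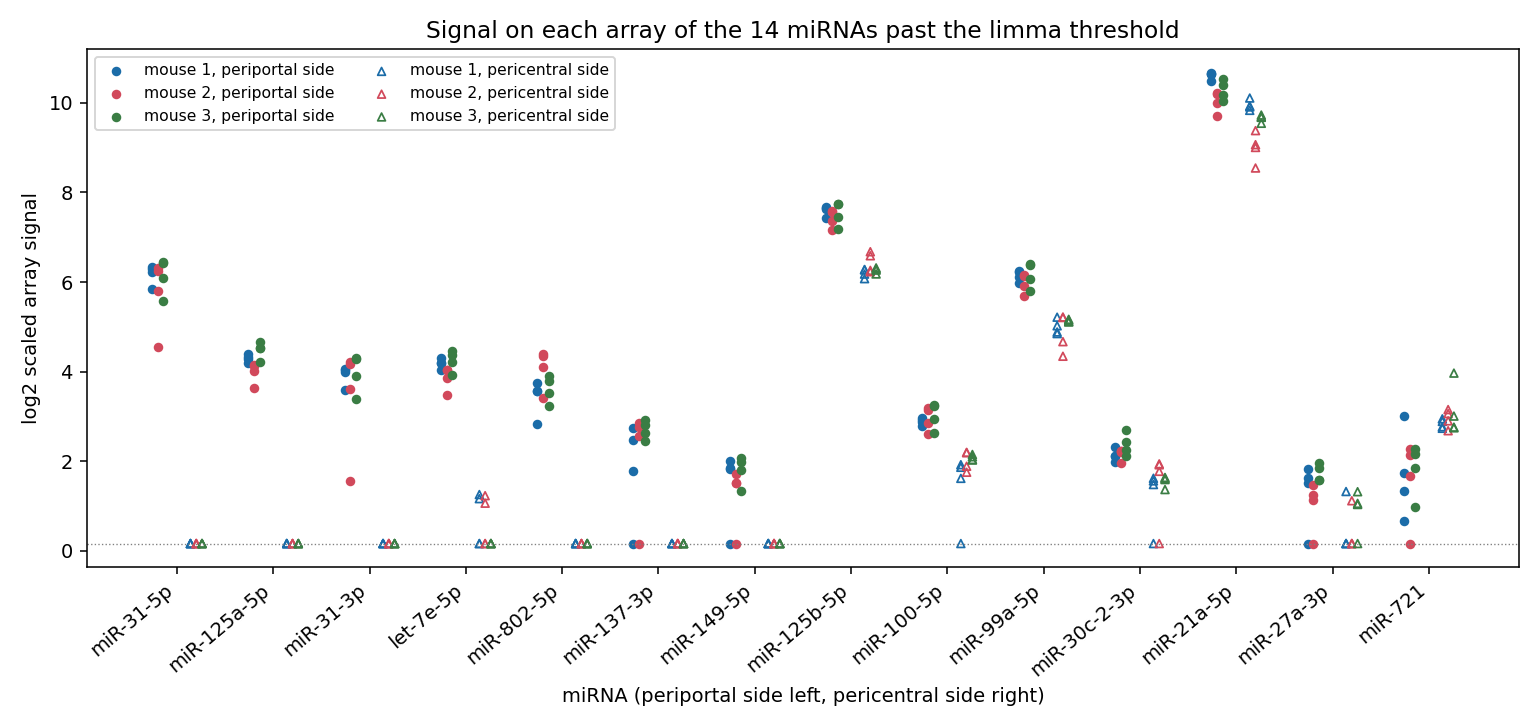
Log2 scaled signal (vertical axis) of the 14 miRNAs past the test on each array. For each miRNA the periportal arrays (filled circles) stand left of the pericentral arrays (open triangles), colours mark the 3 mice and the dotted line is the floor; miR-802-5p, miR-125a-5p and both arms of miR-31 lie at the floor on all 12 pericentral arrays, while miR-721, at the right end, is higher on the pericentral side.

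miR-99a-5p, miR-125b-5p and their relative miR-100-5p were higher on the periportal side while detected on at least 11 of 12 pericentral arrays. miR-125b-5p had signals of 142, 190.1 and 216 on periportal arrays (lowest, median, highest), against 67.5, 77.2 and 102 on pericentral arrays. It was 2.31-fold higher, with a log2 difference of 1.21 ± 0.15 (SE) and a limma adjusted p of 0.00536. miR-99a-5p, of a family known to target mTOR, had 51.6, 70.0 and 85.2 against 20.3, 34.7 and 37.3 on pericentral arrays, a 2.14-fold difference (limma adjusted p = 0.00536). Neither miRNA overlapped between sides. miR-100-5p, which shares the seed of miR-99a-5p, had 6.07, 7.65 and 9.59 on periportal arrays, against a median of 3.94 and a highest value of 4.60 on pericentral arrays, where 1 array was undetected. It was 2.18-fold higher (limma adjusted p = 0.0146).

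The remaining 3 of the 13 had smaller differences and were lost under more alternatives than the others. miR-21a-5p, an abundant miRNA known to rise in liver injury, had 839.9, 1275 and 1626 on periportal arrays, against 374, 823 and 1104 on pericentral arrays. It was 1.71-fold higher (limma adjusted p = 0.0459), the sides were apart within each mouse and overlapped over mice, and the call was lost under 10 of 17 alternatives. miR-30c-2-3p had a median of 4.64 against 3.04 on pericentral arrays and was 1.76-fold higher (limma adjusted p = 0.0248), lost under 8 of 16. miR-27a-3p, of a family known for roles in lipid metabolism, was detected on 10 periportal and 5 pericentral arrays, with medians of 2.92 and at the floor. Its difference was 0.76 ± 0.14 (SE, limma adjusted p = 0.0370), lost under 10 of 16.

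miR-721 was the 1 miRNA called lower on the periportal side. Its precursor lies at chr5:136375716-136375803 (minus strand), within Cux1. Signals were at the floor on the lowest, 3.47 at the median and 8.04 at the highest of the periportal arrays, against 6.42, 7.45 and 15.7 on pericentral arrays. The sides overlapped, and the difference was -1.28 ± 0.14 (SE, limma adjusted p = 0.00341), with -1.15, -1.39 and -1.31 in the 3 mice. The call was lost under 6 of 16 alternatives, with adjusted p from 0.000354 to 0.364. miR-130a-3p, which shares its seed, had a difference of -0.15 (limma adjusted p = 0.568).

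Lower values on the periportal side were frequent and mostly small with the scaling used here. Of the 339 differences 132 were above 0 and 207 below, with a median of -0.08, and 60 were above and 91 below 0 in all 3 mice. This excess depended on scaling, since the median was 0.02 without scaling and 0.0056 with control sequences. The most negative was that of miR-3472, at -1.71 ± 0.43 (SE, limma adjusted p = 0.110), with -2.13, -2.69 and -0.30 in the 3 mice. miR-17-3p, of the miR-17 to miR-92 cluster known for driving proliferation, had a median of 2.83 on the periportal side and 3.94 on the pericentral side and a difference of -0.64 ± 0.13 (SE, limma adjusted p = 0.0670). It was the 1 miRNA whose 4 periportal arrays lay below the 4 pericentral arrays in every mouse, against 19 miRNAs that lay above in every mouse.

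Complete separation of the 24 arrays ran in 1 direction. All 12 periportal arrays lay above all 12 pericentral arrays for 14 miRNAs, which is 4.13% of those tested, and all 12 lay below for 0, which is 0%. Of these 14, 9 had passed the test, and the other 5 were miR-30a-3p, miR-30a-5p, miR-221-3p, miR-26a-5p and miR-30c-5p. For both arms of miR-31, miR-125a-5p and miR-802-5p the separation only restates the detection calls, since all their pericentral values are the floor. let-7e-5p was detected on only 4 of 12 pericentral arrays. miR-30a-5p, an abundant miRNA of the miR-30 family, had signals of 348, 409 and 459 (lowest, median, highest) on periportal arrays and 218, 288 and 324 on pericentral arrays, with a difference of 0.56 ± 0.13 (SE, limma adjusted p = 0.104). miR-30a-3p, from the same precursor, had 22.6, 26.1 and 28.9 on periportal arrays and 10.3, 17.9 and 19.2 on pericentral arrays, with a difference of 0.63 ± 0.14 (limma adjusted p = 0.0824). Within single mice the separation ran both ways: 31 miRNAs lay above and 17 below in mouse 1, 37 and 35 in mouse 2, and 37 and 40 in mouse 3.

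Detection calls per side do not use the scaling. They are no separate support for the leading miRNAs, since the fit sets undetected signals to the floor by the same calls. Of 1881 miRNAs, 1433 were detected on neither side, 365 in both and 198 of these on all 24 arrays. On the periportal side alone 60 were detected, and on the pericentral side alone 23. The split of 60 against 23 rested on mouse 3: without it 31 and 30 were detected in 1 side alone. Of the 60, 31 were seen on a single array, and of the 23, 8 were. All-or-none detection was found for 4 miRNAs in the periportal direction (both arms of miR-31, miR-802-5p and miR-125a-5p) and for 0 in the pericentral direction, and both counts were the same without each mouse in turn. On at least 6 arrays of one side and 0 of the other there were 8 periportal and 0 pericentral miRNAs, the other 4 being miR-137-3p, miR-149-5p, miR-193b-3p (7 arrays) and miR-450a-2-3p (6 arrays).

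miRNAs seen on the pericentral side alone were detected on at most 4 of its 12 arrays. Of the 15 seen there on 2 or more arrays, 11 were listed members of the imprinted Dlk1-Dio3 cluster, a large miRNA cluster known from embryonic tissue, such as miR-434-3p, miR-379-5p and miR-127-3p. The 46 listed members on the array are 2.45% of its 1881 miRNAs. Of 17 detected on any array, 11 were pericentral only, 1 periportal only and 5 were seen on both sides. All 11 were detected in mouse 3, 7 in mouse 1 and 1 in mouse 2. Each was below the 6 arrays needed for the test. The 4 members that were tested gave 0 calls and a median difference of -0.24, and miR-376b-3p had -1.32 ± 0.37 (SE, limma adjusted p = 0.142).

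**Figure D3:**
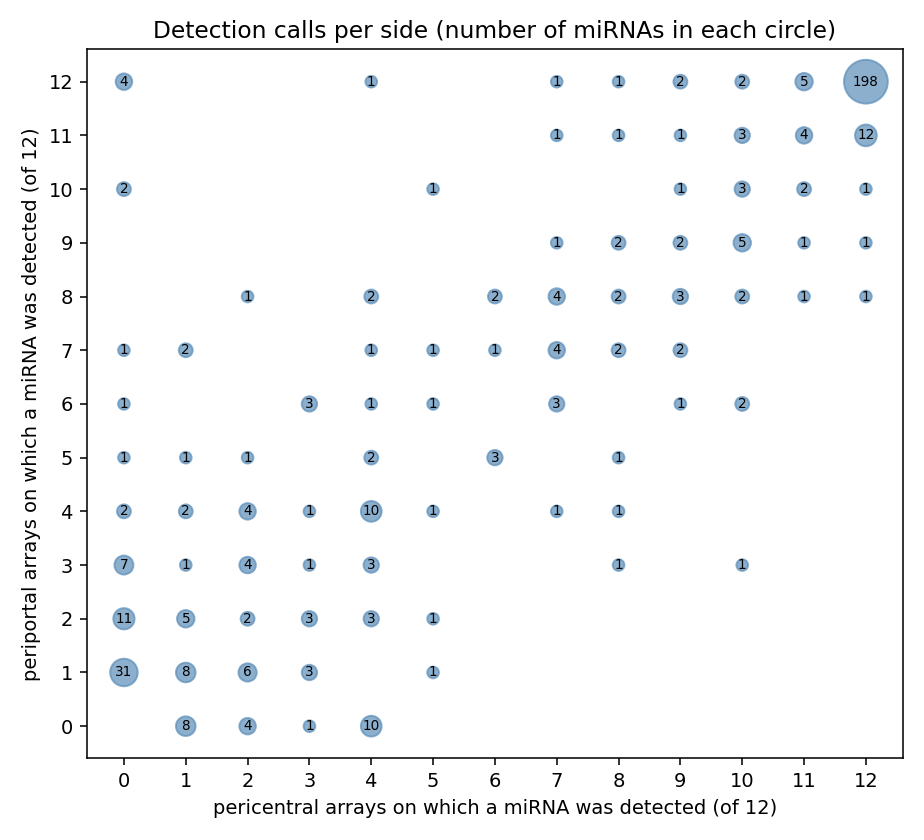
Number of miRNAs by detection on each side: periportal arrays with a detection call on the vertical axis and pericentral arrays on the horizontal axis, each of 12, with the count in each circle. The 1433 miRNAs detected on neither side are not drawn; 4 miRNAs stand at 12 periportal and 0 pericentral arrays, and no miRNA stands at more than 4 pericentral arrays with 0 periportal.

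Arms of the same precursor were compared on each array. The ratio does not depend on scaling between arrays where both arms are above the floor, which held on all 24 arrays for 11 of the 31 precursors tested. Past the threshold were 3 of 31 (9.68%), all with an arm at the floor on some arrays, and 0 of the 11. For miR-125a the 5p arm was higher on the periportal side and the 3p arm did not pass: miR-125a-3p had a detection call on each of the 24 arrays, with a median of 4.11 on periportal and 3.07 on pericentral arrays and a difference of 0.17 ± 0.20 (SE). The log2 ratio of 5p over 3p was 2.45 on the periportal side and -1.47 on the pericentral side, a change of 3.93 ± 0.21 (limma adjusted p = 5.23e-07), of which the pericentral value is set by the floor. Both arms of miR-31 were at the floor on the pericentral side, where its ratio is fixed at 0. Its value of 2.25 therefore sets the levels of different probes on the periportal side against each other, and its place among the 3 is no test of a change. miR-6934 changed by -0.88 ± 0.21 (limma adjusted p = 0.0197), from arms near the floor on both sides, and the call was lost under 7 of 9 alternatives. Without mouse 2 none of the 3 passed. For miR-21a, with both arms detected on all 24 arrays, the change of 0.75 ± 0.22 did not pass (limma adjusted p = 0.0513), with 0.78 for the 5p arm and 0.03 for the 3p arm. In a fit of the 11 precursors alone it passed (limma adjusted p = 0.00027).

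Neighbours of the called miRNAs in the genome were not all called. Mirlet7e and Mir125a lie 368 bases apart within Spaca6 on chr17, at chr17:17830352-17830444 and chr17:17830812-17830879, and let-7e-5p and miR-125a-5p were both called, whereas miR-99b-5p, from the third miRNA of that cluster, was detected on 1 array. Mir99a lies 657 bases from Mirlet7c-1, and let-7c-5p, which can also come from Mirlet7c-2, had a difference of 0.14 (limma adjusted p = 0.551). miR-23a-3p and miR-24-3p, from genes within 80 bases of Mir27a, had differences of 0.58 and 0.02 (limma adjusted p = 0.0864 and 0.907).

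Relatives with the same seed were not all called either, although the differences between relatives were not tested. The 8 other let-7 members that were tested had differences of 0.05 to 0.42, with let-7g-5p at the top and miR-98-5p at the bottom, and none passed. miR-27b-3p had -0.08, against 0.76 for miR-27a-3p, and miR-30c-1-3p had -0.43, against 0.82 for miR-30c-2-3p. Both pairs with shared seeds and shared calls belong to the miR-99, let-7 and miR-125 clusters: miR-125a-5p with miR-125b-5p, and miR-99a-5p with miR-100-5p.

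**Figure D4:**
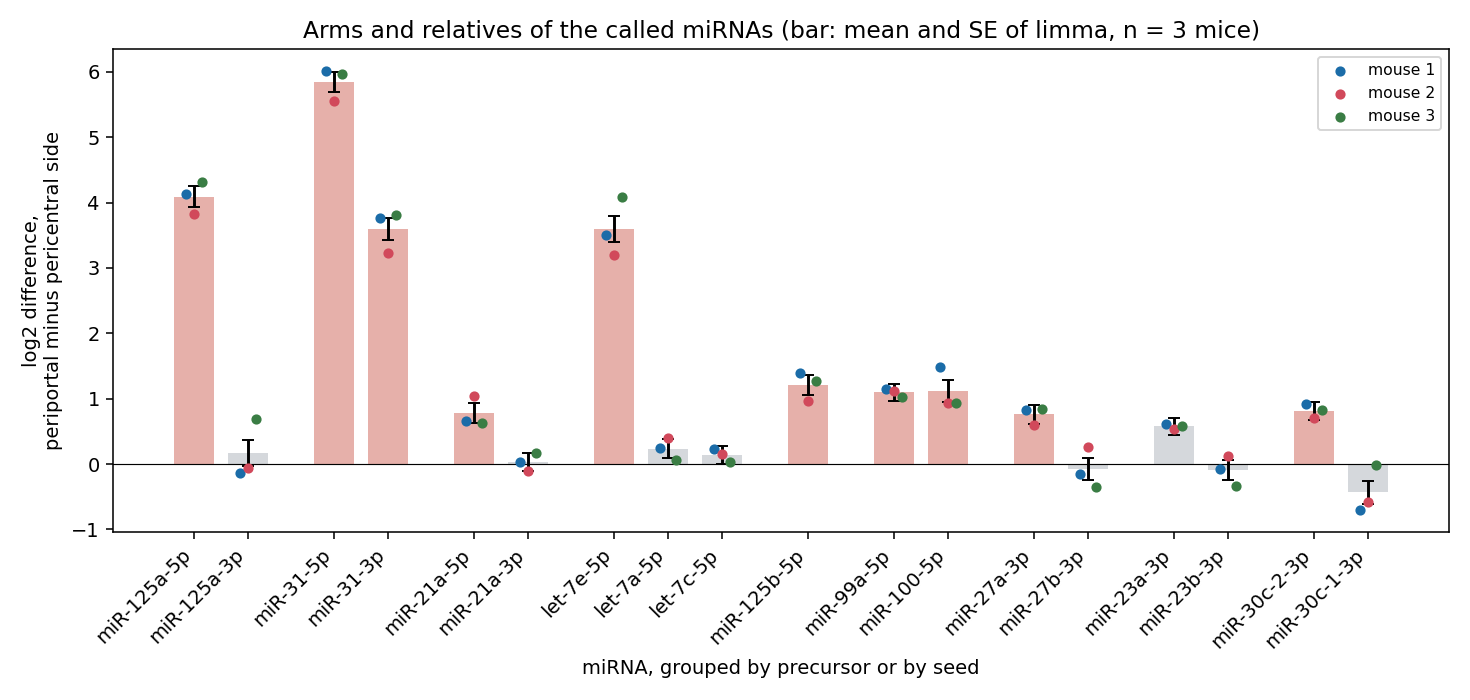
Log2 difference between sides (vertical axis, periportal minus pericentral) for called miRNAs and their other arms or relatives (horizontal axis); bars are the mean with the SE of limma, points are the 3 mice, pink bars passed the test and grey bars did not. miR-125a-5p stands at 4.09 beside miR-125a-3p at 0.17, and let-7e-5p at 3.59 beside let-7a-5p at 0.23; bars of miRNAs at the floor are no bounds.

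Among the miRNA lists, the miR-99, let-7 and miR-125 clusters held the most calls: of 8 tested members 5 were higher and 0 lower, with a median difference of 1.11 beside -0.08 for all tested miRNAs. The counts of called members stand against 3.83% higher and 0.295% lower over all tested miRNAs, which for lists of this size is less than 1 miRNA. The lists were chosen with earlier results of these data known, so such counts describe the lists and are no support for them. Of 13 hepatocyte-abundant miRNAs 2 were higher, miR-802-5p and miR-21a-5p, and 0 lower, with a median of 0.45. miR-122-5p, which dominates the miRNA content of hepatocytes, did not pass: its signal was 10880 to 15230 on periportal arrays with a median of 13290, against 6778 to 11310 with a median of 10140 on pericentral arrays, and its difference was 0.47 ± 0.13 (SE, limma adjusted p = 0.143), above 0 in all 3 mice. The miR-30 family had 1 of 9 higher, miR-30c-2-3p, and a median of 0.42, with 8 of 9 differences above 0. With 24 arrays as separate values and the random block, 8 of the hepatocyte list and 6 of the miR-30 family were higher, and 1 member of the miR-30 family was lower. miR-122-5p was among those 8 (limma adjusted p = 0.000345), in a fit whose p-values mostly measure spread between zones.

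Metabolic lists shared a few calls, to be read beside 3.83% higher and 0.295% lower over all tested miRNAs. Of 9 cholesterol and lipid miRNAs 3 were higher, miR-802-5p, miR-21a-5p and miR-27a-3p, and 0 lower, with a median of 0.45. miR-33-5p, which lies in a gene of sterol control and represses Abca1, had 0.43 ± 0.15 (SE, limma adjusted p = 0.183), and miR-185-5p had -0.42 ± 0.16 (0.218). Of 11 insulin and glucose miRNAs miR-802-5p alone was called, with a median of 0.27 over the list. miR-107-3p, known to act on insulin sensitivity, had -0.27 ± 0.14 (limma adjusted p = 0.324). Of 5 hypoxia miRNAs miR-21a-5p alone was called. The list had a median of 0.58, with 4 of 5 differences above 0, 3 of them in all 3 mice. miR-193b-3p had 0.60 and miR-23a-3p 0.58 (limma adjusted p = 0.145 and 0.0864), and miR-210-3p, which low oxygen is known to induce in many cell types, had -0.42 ± 0.16 (limma adjusted p = 0.204). With 24 arrays as separate values and the random block, 6 of the lipid list were higher and 1 lower, 4 and 1 of the insulin list, and 3 and 0 of the hypoxia list.

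Other lists gave few or no calls, again beside 3.83% higher and 0.295% lower over all tested miRNAs. In the let-7 family 1 of 9 was higher, with a median of 0.14, and in the clusters of miR-27, miR-23 and miR-24 1 of 5, with a median of 0.02. None passed among 9 members of the clusters around miR-17 and miR-92 (median -0.16), 5 of the family of miR-195, miR-16 and miR-15 (-0.11), 4 of the miR-29 family (0.14), 3 of the miR-148 and miR-152 family (0.21) and 6 Drosha-independent miRNAs and mirtrons (-0.17). With 24 arrays and the random block, 1 of the Drosha-independent list was higher and 2 lower. List medians depended on scaling. With quantile normalization those of the miR-29 family and of the clusters of miR-27, miR-23 and miR-24 turned to -0.12 and -0.0029. The same scaling gave 0.21 for the hepatocyte list, 0.22 for the lipid list, 0.095 for the insulin list and 0.046 for the let-7 family. Without scaling the median of the miR-15 family was -0.0051 and that of the clusters around miR-17 and miR-92 -0.06. It was 0.24 for the let-7 family and for the miR-29 family, 0.13 for the clusters of miR-27, miR-23 and miR-24, -0.14 for the Dlk1-Dio3 cluster and -0.064 for the Drosha-independent list.

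**Figure D5:**
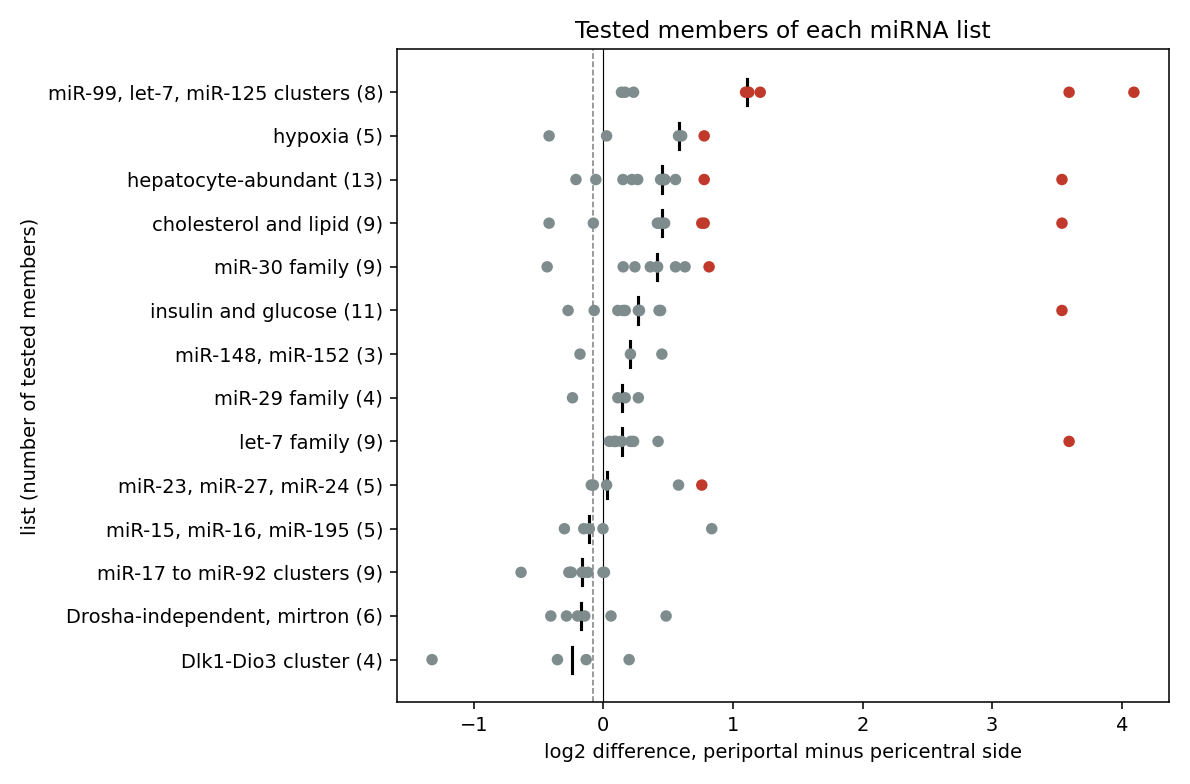
Log2 difference between sides (horizontal axis, periportal minus pericentral) of each tested member of the 14 lists (rows, with the number of tested members); red points passed the test, black bars are list medians and the dashed line is the median of all 339 tested miRNAs. The miR-99, let-7 and miR-125 clusters have the highest median, 1.11, and the Dlk1-Dio3 cluster the lowest, -0.24; some miRNAs are in more than 1 list.

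None of the 5 brightest miRNAs passed the test on mouse means. With 24 arrays as separate values and the random block, miR-122-5p and miR-6366 passed (limma adjusted p = 0.000345 and 0.0335) and the others did not. In that fit the zones of a mouse act nearly as replicates, so these p-values do not measure spread between mice. miR-6366 held 29.9% of the summed signal on the periportal side and 35.7% on the pericentral side, with a difference in scaled signal of -0.34 ± 0.16 (SE, limma adjusted p = 0.289). miR-122-5p held 15.3% and 10.4%, and miR-3963, miR-5100 and miR-3968 had limma adjusted p of 0.4996, 0.646 and 0.366. These shares do not rank amounts, since signal per molecule differs between probes.

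The contrast was also taken at the border and at the ends of the axis. From zones 5 and 4 alone, which border each other, the differences were 5.16 for miR-31-5p, 3.85 for miR-125a-5p, 3.29 for let-7e-5p and 3.00 for miR-802-5p, and these 4 miRNAs passed. From zones 8 and 1 alone they were 6.16, 4.16, 3.73 and 3.74. miR-137-3p was 0.76 at the border and 2.55 at the ends, and miR-149-5p was 0.39 and 1.62. For all of these but let-7e-5p, zones 4 and 1 are at the floor in every mouse, and for let-7e-5p they are in mice 2 and 3. Their border and end values therefore differ almost only through zones 5 and 8, and the border differences set zone 5 against a constant. miR-721 was -1.91 at the border and -1.33 at the ends. Zones 5 and 4 lie in different slide rows, so this border is also the change of row. In sorted bulk RNA, fewer cells carrying a miRNA and less of it per cell cannot be told apart.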

How the data were processed

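RNA of each sorted population was hybridised, after Cy3 labelling, to 1-colour miRNA arrays from Agilent (labels' protocols). Per the file headers, the authors deposited for each miRNA a total gene signal, an intensity on a linear scale, and a detection call of 1 or 0. The submitters' processing notes name Agilent Feature Extraction, whose version is not given in the sources used here. Undetected miRNAs had a deposited signal of 0.1, and the median deposited error of detected signals was 11.2%. No 2 arrays held identical values.

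From these, 21 control rows were left out, and arrays were brought to a common 75th percentile, computed on the 198 miRNAs that every array detected. Scaled signals under the floor, which is the median of the arrays' lowest detected scaled signals, were set to it, and log2 was taken. The 4 zones of each mouse and side were averaged, and the 6 values were fitted with limma 3.58.1 (R 4.3.3) with side and mouse as terms, two-sided, with a threshold of 0.05. The mouse pairs the sides because both came from 1 animal: deviations of arrays of a mouse correlated with a median of 0.61 (lowest 0.254). In a fold against the limit of detection, an undetected array of the brighter side entered at its own lowest detected signal. The fit was also run on simulated data with independent noise on each array. That noise had no floor and no variation of the side difference between mice, so the run does not cover floored miRNAs. Figures used Python with matplotlib.

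Named miRNAs followed a rule: the 12 largest calls each way, those detected on at least 6 arrays of one side and 0 of the other, up to 6 tested members of each list, up to 5 arm ratios and the 5 brightest. miR-17-3p, miR-3472, miR-221-3p and other uncalled relatives and arms, the sequences shown for them, and the set of 250 miRNAs behind the stricter limit were chosen after their values were seen. The comparison and the lists were chosen with earlier results of these data known. The alternatives were the block, the unit of analysis, scaling, filter, floor, eBayes options, mice and zones.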

Additional observations from a re-analysis of the deposited data

Results flagged for a closer look

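Of the control sequences, which no miRNA comparison uses, 5 were detected on part of the arrays. dmr_285, dmr_3, dmr_31a and dmr_6 were each detected on 16 arrays, 8 from mouse 1, 8 from mouse 2 and 0 from mouse 3, with 8 periportal and 8 pericentral arrays each. miRNABrightCorner30 was detected on 22 arrays, 11 on each side. The part of these differences between slides in the results was not tested.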

How the results depend on the processing

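The 14 called miRNAs kept the sign of their difference under every alternative in which they were tested, while the number of calls did not hold. For both arms of miR-31, miR-125a-5p, miR-802-5p, miR-137-3p and miR-149-5p every pericentral value is the floor, so no alternative could turn their sign. The others were called on these same data, so their kept sign is a description and no separate support. Main counts were 13 higher and 1 lower. Without the replicate block, on the same 6 means, they were 9 and 1. With 24 arrays as separate values and the block they were 48 and 57, and with the random block added 37 and 37. Without scaling they were 21 and 4, with control sequences 16 and 4, with eBayes trend and robust 16 and 3, and with miRNAs detected on all 24 arrays 19 and 20 of 198. A floor 4 times lower gave 9 and 0, leaving out zones 4 and 5 gave 12 and 0, zones 4 and 5 alone 4 and 0, and the end zones 1 and 8 alone 9 and 0. The fits without 1 mouse gave 1 to 14 higher and 0 to 4 lower. Summed-signal scaling (13 and 1), quantile normalization (11 and 1) and miRNAs detected on at least 1 array (10 and 1) stayed within 1.5 times. Of precursors with a changed arm ratio there were 3, 7 with 24 arrays and the block, 1 with both arms detected on all 24 arrays, and 0 to 6 without each mouse. Detection on the periportal side alone was 31 to 63 without each mouse (60 with all) and on the pericentral side alone 19 to 30 (23 with all), an alternative chosen after seeing the data. The cause of these changes was not tested. miR-31-5p passed under all 16 alternatives, and let-7e-5p, miR-125a-5p and miR-802-5p under all but the one without mouse 2 (adjusted p = 0.187, 0.0655 and 0.0815). The median of all tested miRNAs was -0.08, and 0.02 without scaling, a shift that bears on small differences. Slide row could not be fitted beside side. Leaving out 1 mouse leaves 2, and signals at the floor carry no order.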
